A study of Macaca fascicularis with 9 samples.

Results

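Gene expression in the thalamus of 3 cynomolgus monkeys that had received OTV:MALAT1 into a vein was compared with that of 3 monkeys that had received saline into a vein, within each cell type. These are 6 of the 9 animals of the study, chosen by their treatment label. All 9 were female monkeys (Macaca fascicularis), and the labels give no age. OTV:MALAT1 was given intravenously as 4 biweekly doses of 30 mpk, saline as 4 biweekly intravenous doses, and the brains were sampled 2 weeks after dosing ended. The other 3 animals had been given 4 mg of an antisense oligonucleotide (ASO) against MALAT1 once, intrathecally and not as OTV. They contributed to the shared estimate of spread, and their means are given where they help to read a value. Nuclei came from frozen brain tissue and were counted in droplets (10x Genomics), so a value is a count of unique molecular identifiers (UMIs) from nuclear RNA. Counts were summed per animal within the authors' cell types, namely oligodendrocytes, oligodendrocyte precursor cells (OPCs), myeloid nuclei and astrocytes. Neurons were tested in addition.

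MALAT1 is an abundant nuclear noncoding RNA that gathers in nuclear speckles, the bodies that hold SR splicing proteins. An antisense oligonucleotide of the gapmer kind pairs with its target RNA and recruits RNase H, which cuts the RNA. In OTV the oligonucleotide is linked to a protein with affinity for the transferrin receptor, by which brain endothelial cells take up iron-loaded transferrin. Oligodendrocytes wrap axons in myelin, OPCs renew them, microglia are the resident myeloid cells of the brain, and astrocytes support neurons and vessels. The functions asked about here are those of genes whose level differed in all 4 types, set against those of genes that differed in a single type.

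Several libraries stood apart, and they touch every result below. Saline replicate 3 held 36.3% oligodendrocytes and 17.8% neurons, against 73.1% to 74.4% and 1.01% to 2.94% in the OTV animals. Its summed level of striatal neuron markers over all nuclei was 3322 CPM (UMI counts scaled to a common library total), against 70.1 to 139.9 CPM in the OTV animals and 345 and 96.0 CPM in the other saline animals. A region score, the mean log2 CPM of telencephalic less that of diencephalic astrocyte genes in each animal's astrocytes, was -3.16, -3.42 and -2.80 in the OTV animals, and 2.24, -2.07 and 4.67 in saline replicates 1, 2 and 3. All 3 saline animals therefore scored above all 3 OTV animals, so that the tissue sampled and the treatment cannot be told apart by group. Thalamic neuron markers were present in the neurons of every animal, with 4 to 6 of the 6 genes detected. Their summed levels in neurons were 3867 to 5168 CPM (OTV) and 1702 to 2811 CPM (saline). In the saline animals the same genes summed to 2464 to 2770 CPM in OPCs and 4010 to 8217 CPM in astrocytes. Their presence therefore does not show that the neurons were thalamic. Totals over all nuclei ran from 22.5 to 63.6 M UMIs (OTV) and from 20.0 to 87.4 M (saline), where M stands for 1e6, and the nuclei of OTV replicate 3 were the shallowest, with a median of 2579 UMIs. Of 79232 distinct nucleus barcodes, 760 occurred in more than 1 library.

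The targeted RNA was lower in oligodendrocytes. MALAT1 stood at 41687, 35769 and 30466 CPM in the OTV animals and at 64773, 67542 and 65036 CPM in the saline animals. The groups did not overlap, and the log2 fold change of -0.87 ± 0.14 (SE, n = 3 animals per group, as for every value after ± below) passed edgeR's quasi-likelihood test after Benjamini-Hochberg adjustment (adjusted p = 0.00305). In OPCs, myeloid nuclei, astrocytes and neurons the log2 differences were -0.43, -0.90, -0.51 and -1.26, and none passed the same test (adjusted p = 0.0526, 0.0709, 0.179 and 0.16). No difference in the MALAT1 change between types passed either. TFRC, which encodes the transferrin receptor, gave log2 differences of 0.36, 0.19, 0.18 and 0.54 in oligodendrocytes, OPCs, myeloid nuclei and astrocytes, none of which passed.

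Many genes differed between the groups in each type. At an adjusted p under 0.05, 3854 of 20036 features differed in oligodendrocytes (19.2%, 7.52% higher and 11.7% lower in the OTV animals). The counts were 3286 of 14894 in OPCs (22.1%, 10.2% higher and 11.9% lower), 1522 of 12667 in myeloid nuclei (12%, 4.76% higher and 7.26% lower) and 2094 of 13608 in astrocytes (15.4%, 6.27% higher and 9.12% lower). Neurons had 645 of 9457 (6.82%, 2.52% higher and 4.3% lower). In each of these types more features were lower than higher, but over the 11324 features tested in all 4 glial and myeloid types the order was the other way in oligodendrocytes (10.6% higher and 9.73% lower) and OPCs (11.5% and 10.4%). Of these 11324 features, 7345 (64.9%) passed in none, 1898 (16.8%) in exactly 1 type, 894 (7.89%) in 2 and 628 (5.55%) in 3. Another 557 passed in all 4 types in the same direction, 208 higher (1.84%) and 349 lower (3.08%), and 2 passed in all 4 with mixed signs. These 2, named after their values were seen, are SLC39A13, a zinc transporter, with log2 fold changes of 0.62, 0.73, -2.15 and 1.19 in oligodendrocytes, OPCs, myeloid nuclei and astrocytes, and WAS, an actin regulator of blood-derived cells, with -1.15, -1.44, 0.64 and -1.50. The median over the features of their mean log2 difference in the 4 types was 1.10 in the higher set and -2.17 in the lower set, against 0.02 over all 11324 features. Membership in these sets was read from the same calls, so these medians describe the sets. OTV and saline animals did not overlap for 36.1% of all tested features in oligodendrocytes and 39% in OPCs. The shares were 32.3% in myeloid nuclei, 35.2% in astrocytes and 33.1% in neurons. Of the 208 and 349 shared features, 204 and 343 did not overlap in all 4 types. Where a gene is said not to overlap, this therefore adds little to its call.

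**Figure D1:**
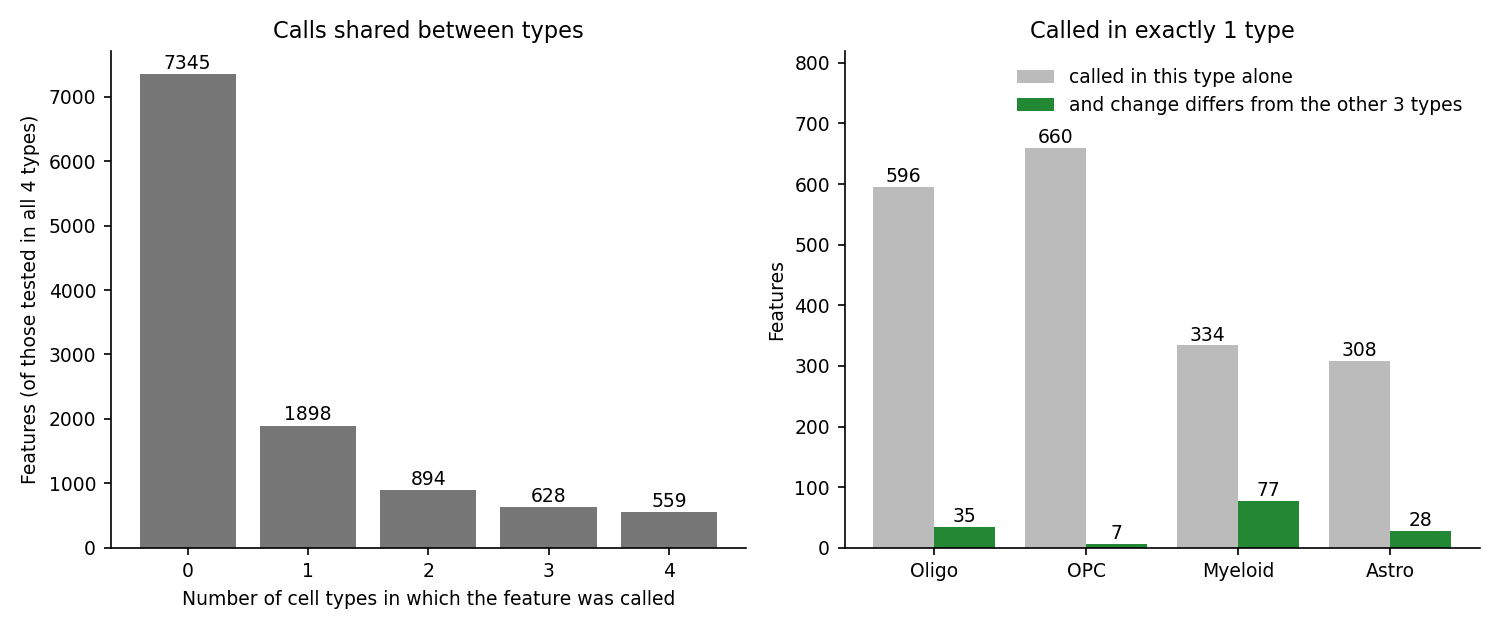
Left, number of the 11324 features tested in all 4 types by the number of types in which they were called (adjusted p under 0.05), and right, the features called in exactly 1 type, by type, with those whose change there differed from the other 3 types. Myeloid nuclei have 334 such features, fewer than OPCs with 660, but more that differed, 77 against 7.

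The count of shared genes rested on few animals. Without saline replicate 1, 57 features were higher in all 4 types, without saline replicate 2, 60, and without OTV replicate 3, 67. The lower set held 182, 187 and 166 features in the same fits. With the region score as a further term in the model, 64 features were higher and 212 lower in all 4 types, of which 56 and 205 were in the sets above.

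Of all the lists, the one with the highest median was that of RNAs encoded by the mitochondrial genome, which specify subunits of the respiratory chain. Of 12 such genes tested, 9 rose in all 4 types (ND1, ND2, ND3, ND4L, ND5, COX1, COX3, ATP6 and ATP8), none fell, and the median log2 difference over the 12 was 2.80. ND5, a subunit of complex I, stood at 51.3, 31.4 and 41.0 CPM in OTV oligodendrocytes and at 6.18, 3.17 and 2.72 CPM in saline oligodendrocytes, with no overlap, and its log2 fold change was 3.29 ± 0.45. In myeloid nuclei ND5 stood at 38.8, 33.5 and 49.0 CPM against 7.61, 4.82 and 2.75 CPM, and in astrocytes at 78.6, 30.2 and 75.6 CPM against 6.75, 5.63 and 3.38 CPM. Every OTV value lay above every saline value in these types too. COX1, the catalytic subunit of cytochrome oxidase, rose by 2.33, 2.73, 2.50 and 2.47 log2 units in oligodendrocytes, OPCs, myeloid nuclei and astrocytes. These RNAs are made outside the nucleus, and their summed level moved by library: over all nuclei it was 545 to 1454 CPM in the OTV animals, 45.2 to 263.8 CPM in the saline animals and 3.68 to 7.93 CPM in the intrathecal ASO animals. The groups did not overlap, and the part of this library-wide level in the rises of each type was not tested. The 9 shared rises became 3 without saline replicate 2 or without OTV replicate 3, 4 without OTV replicate 1 and 2 with the region score in the model. ND1 lost its call in 9 of 13 alternatives in oligodendrocytes and in 8 in myeloid nuclei.

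**Figure D2:**
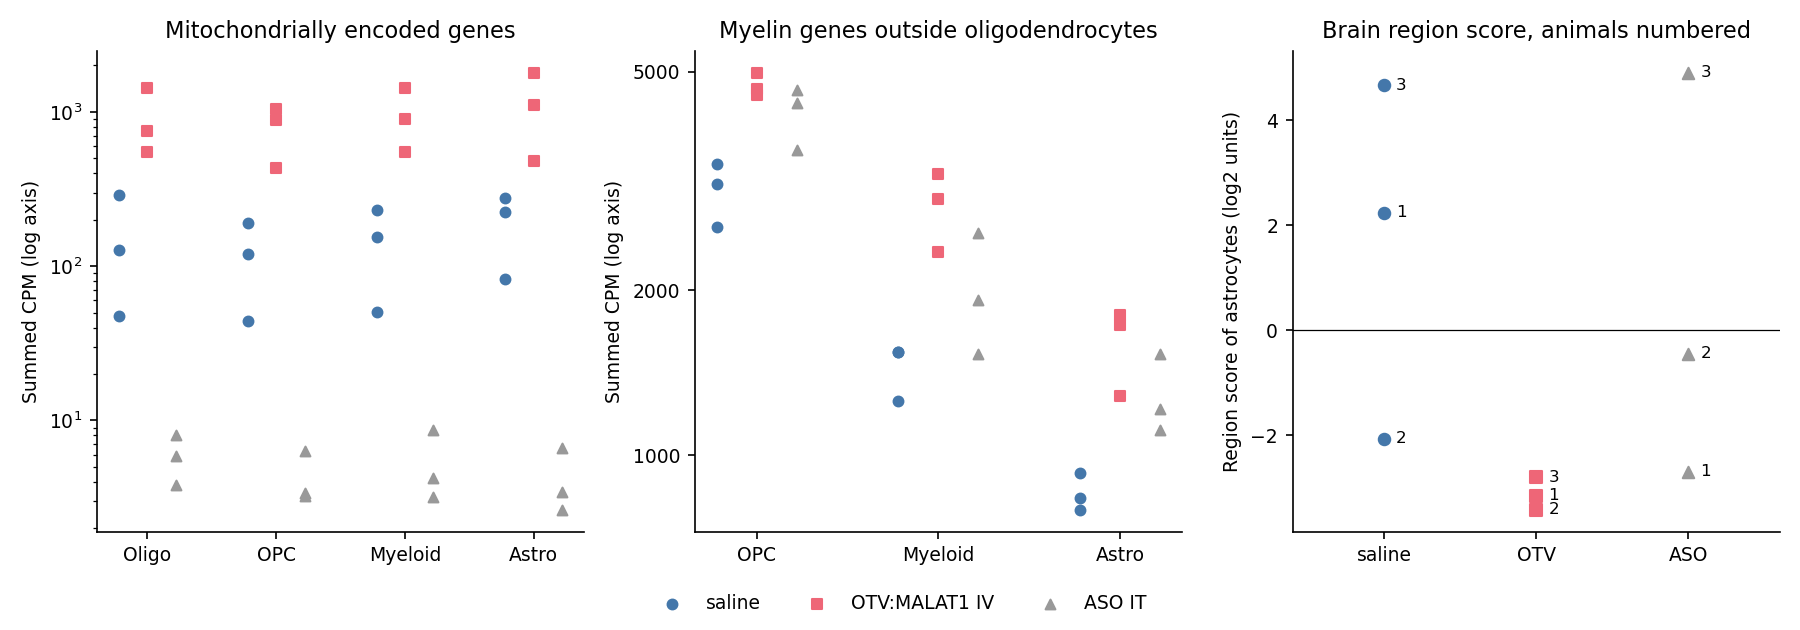
Summed CPM per animal of the mitochondrially encoded genes by cell type (left, log axis), of the myelin genes in OPCs, myeloid nuclei and astrocytes (middle, log axis) and the region score (right, log2 units, animals numbered), with 1 point per animal. Mitochondrially encoded RNA keeps the 3 groups apart, myelin RNA is higher in every OTV than in every saline animal, and the OTV animals lie at -3.42 to -2.80 in the region score, below all saline animals.

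Several splicing genes rose in all 4 types. Of 35 nuclear speckle and SR splicing proteins tested, 6 rose in all 4 (17.1%, beside 1.84% of all features), namely SRRM2, CLK2, ACIN1, LUC7L, U2AF2 and SF3B1, and 1 fell, SRSF2, with a median of 0.31 over the list. SRRM2 is a scaffold protein of nuclear speckles. It stood at 368, 478 and 499 CPM in OTV oligodendrocytes and at 242, 245 and 271 CPM in saline oligodendrocytes, where the groups did not overlap. Its log2 fold changes in oligodendrocytes, OPCs, myeloid nuclei and astrocytes were 0.83, 1.08, 0.92 and 1.14. CLK2, a kinase that phosphorylates SR proteins, rose by 0.95, 0.82, 1.22 and 1.30 in the same order, and U2AF2, the large subunit of the factor that binds the polypyrimidine tract, by 1.05, 1.05, 0.80 and 1.11. SRSF2, an SR protein itself, gave -0.60, -0.73, -1.06 and -0.90. ND3, ND4L, ACIN1, SF3B1 and SRSF2, and below HDAC4, KDM3B, CDK9, SMOC1, TNS3, ZNF488, LUZP2 and MOBP, lie outside the rule for named genes and were chosen after their values were seen. Of 42 core spliceosome proteins, 1 rose in all 4 types, the splicing factor PUF60, and none fell. The calls of PUF60 and LUC7L in myeloid nuclei and of CLK2 in OPCs were each lost in 6 of 13 alternatives, and that of LUC7L in astrocytes in 5. The 6 shared rises in the speckle list were 1 with the region score in the model, 2 without saline replicate 1 or 2 or OTV replicate 3, 2 in a fit of the 6 compared animals alone, 3 without OTV replicate 2 or saline replicate 3, and 12 without OTV replicate 1.

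Chromatin and transcription genes that passed in all 4 types were all higher. Of 38 histone deacetylases, demethylases and members of their complexes, 6 rose in all 4 types (HDAC4, KDM3B, KDM4B, MTA1, CHD4 and MBD3, 15.8%, beside 1.84% of all features) and none fell. CHD4, the remodelling ATPase of the NuRD complex, stood at 168, 188 and 238 CPM in OTV oligodendrocytes against 107, 95.7 and 95.2 CPM in saline oligodendrocytes, with no overlap, and rose by 1.00, 1.15, 0.80 and 1.22 log2 units over the 4 types. MTA1 and MBD3, further NuRD subunits, rose by 0.81, 0.89, 0.90 and 1.06 and by 1.29, 1.02, 1.27 and 1.01. Of 42 histone acetyltransferases, methyltransferases and partners, KAT2A, EHMT2 and BRD3 rose in all 4 types (7.14%) and none fell. KAT2A, the acetyltransferase also called GCN5, stood at 93.2, 74.1 and 87.1 CPM against 26.4, 29.1 and 28.4 CPM in oligodendrocytes, a separation of the groups with a log2 fold change of 1.60 ± 0.14. Of 41 RNA polymerase II and Mediator genes, MED12, CDK9 and SUPT6H rose in all 4 (7.32%). SUPT6H, a histone chaperone that travels with the polymerase, stood at 20.5, 21.8 and 29.8 CPM against 9.52, 9.34 and 7.53 CPM in oligodendrocytes and rose by 1.43, 1.40, 1.52 and 1.40. Of 50 nuclear pore and transport genes, IPO13 and NXF1, the main export receptor of messenger RNA, rose in all 4 (4%), NXF1 by 1.22, 1.37, 1.66 and 1.27. The deacetylase count was 2 with the region score in the model, 1 without OTV replicate 3 or saline replicate 1, and 2 without saline replicate 2. In 5 or 6 of 13 alternatives the calls of KDM4B and KAT2A in myeloid nuclei and of MBD3 in astrocytes were lost. The acetyltransferase and polymerase counts were 0 to 2 in the fits that left out 1 animal. The nuclear transport count was 0 to 3 in the same fits. The SUPT6H call in astrocytes was lost without saline replicate 1, without OTV replicate 3 and with the region score. In myeloid nuclei the calls of EHMT2 and IPO13 were lost in 10 of 13 alternatives and that of MED12 in 8, and in astrocytes that of BRD3 in 9.

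Among genes at 20 CPM or more whose groups did not overlap, the 8 shared rises with the largest change in their weakest type were taken, of which 6 were mitochondrially encoded, 1 was SUPT6H and 1 was MIB2, an E3 ubiquitin ligase of the Notch pathway. MIB2 stood at 30.4, 30.8 and 47.5 CPM in OTV oligodendrocytes and at 12.2, 10.7 and 13.2 CPM in saline oligodendrocytes. The groups were apart in all 4 types, with log2 fold changes of 1.60, 1.63, 1.81 and 1.75, and the intrathecal ASO animals averaged 11.2 CPM in oligodendrocytes, beside the saline animals.

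**Figure D3:**
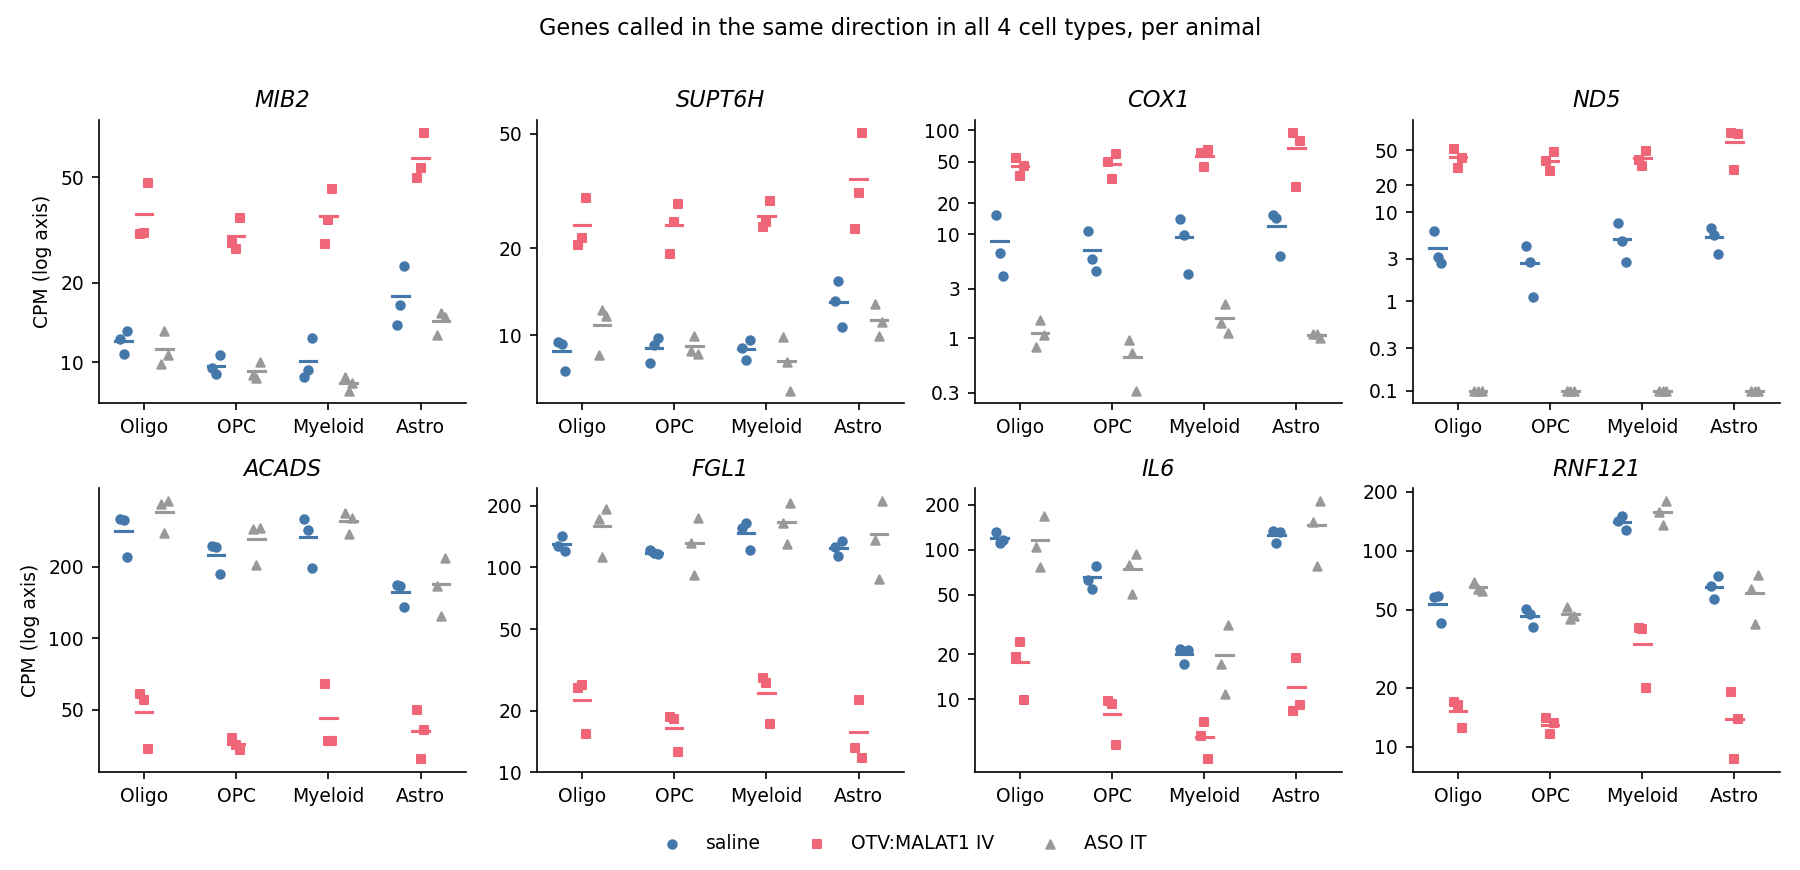
CPM of 4 genes that rose and 4 that fell in all 4 types, by cell type, on log axes, with 1 point per animal and a line at each group's mean. OTV and saline animals do not overlap in any type shown, and the ND5 values of the intrathecal ASO animals, all below 0.1 CPM, are drawn at 0.1 CPM.

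Among genes with a symbol, those that fell most in all 4 types had no common pathway in the lists. ACADS encodes a mitochondrial enzyme of short-chain fatty acid oxidation. It stood at 58.5, 54.9 and 34.3 CPM in OTV oligodendrocytes and at 317, 315 and 219 CPM in saline oligodendrocytes, and in astrocytes at 50.2, 31.0 and 41.2 CPM against 168, 166 and 136 CPM. Both types showed the OTV animals well below the others, with log2 fold changes over the 4 types of -2.53, -2.64, -2.48 and -1.92. FGL1, a secreted fibrinogen-like protein known from liver, stood at 25.6, 26.8 and 15.3 CPM against 128, 142 and 121 CPM in oligodendrocytes and had log2 fold changes of -2.53, -2.82, -2.54 and -3.05. RNF121, an E3 ubiquitin ligase of the endoplasmic reticulum and Golgi, stood at 40.1, 39.7 and 19.9 CPM against 142, 150.3 and 127 CPM in myeloid nuclei and had log2 fold changes of -1.81, -1.82, -2.02 and -2.17. The intrathecal ASO means of 340.3 CPM (ACADS, oligodendrocytes), 159 CPM (FGL1, oligodendrocytes) and 157 CPM (RNF121, myeloid nuclei) lay above every OTV value. FILIP1L, IRGC, SLC9A2, a sodium-proton exchanger, and ALOX12, an arachidonate lipoxygenase, also fell in all 4 types. In the same order of types, the log2 fold changes of FILIP1L were -1.84, -2.94, -3.11 and -2.14, and those of SLC9A2 -2.42, -2.43, -2.01 and -2.95. FILIP1L in myeloid nuclei rested on few counts, with 12, 3 and 0 UMIs in the OTV animals. The calls of ACADS, FGL1, RNF121, FILIP1L, IRGC and SLC9A2 in all 4 types and of MIB2 and ND5 held in all 13 alternative analyses run for single genes, while that of ALOX12 in myeloid nuclei was lost in 4.

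IL6, the inflammatory cytokine, fell in all 4 types but unequally. It stood at 19.1, 24.0 and 9.85 CPM in OTV and 131, 111 and 117 CPM in saline oligodendrocytes, and at 5.73, 7.05 and 3.98 against 21.7, 17.3 and 21.3 CPM in myeloid nuclei. The groups did not overlap in either type. Its log2 fold change in myeloid nuclei, -1.80, was smaller in size than the mean of the other 3 types by 1.21 (adjusted p = 0.0139 in edgeR's joint quasi-likelihood fit), and in astrocytes, at -3.46, the difference from the other types was -0.91 (adjusted p = 0.0368). The myeloid call of IL6 was lost without saline replicate 1, without any 1 OTV animal, and with the region score in the model. Myeloid sums of the OTV animals held 0.754 to 3.82 M UMIs, so the lowest IL6 value there, 3.98 CPM, rested on few counts.

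Lists of the cytosol and of organelles other than the mitochondrially encoded genes held 0 to 4 shared changes each. Of 34 cytosolic ribosomal protein genes, RPLP0 and RPS6 fell in all 4 types (5.88%, beside 3.08% of all features and 1.41% of those with a symbol) and none rose, with a median log2 difference of -0.60 over the list. RPS6, a small-subunit protein, stood at 65.0, 45.7 and 68.8 CPM in OTV astrocytes against 172, 159.6 and 118 CPM in saline astrocytes, with no overlap, and its log2 fold changes over the 4 types were -1.53, -1.67, -1.65 and -1.32. Counted within a type, 13 of the 34 fell in astrocytes, 7 in OPCs, 3 in oligodendrocytes and 2 in myeloid nuclei, where 1 rose. Of all 11324 features, 7.96%, 10.4%, 9.73% and 7.12% were lower in these types in the same order, so that the counts in oligodendrocytes and myeloid nuclei were near or below that share. NDUFA4 was the 1 gene of 43 nuclear-encoded respiratory genes called in all 4 types. It was lower (2.33% of the list, beside 3.08% of all features and 1.41% of those with a symbol). Its call was lost in 9 of 13 alternatives in myeloid nuclei, 5 in oligodendrocytes, 4 in astrocytes and 2 in OPCs, and the list's median was -0.36. The lysosomal proton pump subunits ATP6V1D and ATP6AP2 fell in all 4 types, with log2 fold changes of -1.14, -1.28, -1.19 and -1.22 and of -1.29, -1.28, -1.25 and -1.11. They made up 4.17% of 48 lysosomal genes, beside 3.08% of all features and 1.41% of those with a symbol. Chaperones were divided: HSF1, the master regulator of the heat shock response, and DNAJC5 rose, while DNAJA1 and TCP1 fell, of 37. This is 5.41% each way, beside 1.84% higher and 3.08% lower of all features (1.84% and 1.41% of those with a symbol). The proteasome was divided as well, with PSMC5 and PSMD2 higher and PSMB3 lower, of 34 (5.88% and 2.94%). The 2 proteasome rises were 0 with the region score, without saline replicate 1 or 2 and without OTV replicate 3, and the PSMB3 call in myeloid nuclei was lost in 10 of 13 alternatives. The 2 chaperone falls were 0 without saline replicate 1 or 2 or OTV replicate 3. The 2 chaperone rises were 1 without saline replicate 1 or 2, without any 1 OTV animal and in the fit of the 6 compared animals. DNAJC5 lost its call in 5 of 13 alternatives in astrocytes and in 5 in myeloid nuclei. Of 38 translation factors EIF4G1 rose in all 4 types, while the fall of EIF2B1 in all 4 was lost in all 13 alternatives in astrocytes, in 10 in oligodendrocytes and in 5 in myeloid nuclei. AP3D1, of 66 clathrin, endosomal sorting and Rab genes, rose in all 4 types in every alternative. TARS2, of 34 aminoacyl-tRNA synthetases, and CEP290, of 44 cilium and centrosome genes, rose, and MPC2, of 22 genes of glycolysis and pyruvate entry, fell. Each of these is 1 gene, or 1.52% to 4.55% of its list, beside 1.84% higher and 3.08% lower of all features. Of features with a symbol, 1.84% were higher and 1.41% lower. The TARS2 call was lost in 10 of 13 alternatives in myeloid nuclei and 7 in astrocytes, that of CEP290 in 6 in astrocytes and 6 in oligodendrocytes, and that of MPC2 in 6 in astrocytes and 6 in myeloid nuclei. No member of the unfolded protein response (31 genes), autophagy (36 genes), iron handling (20 genes) or cholesterol lists (27 genes) differed in all 4 types.

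Among 27 genes of nucleic acid sensing and the interferon response, TYK2, a kinase of interferon receptors, rose in all 4 types, by 0.84, 0.74, 0.64 and 1.06 on the log2 scale, but its call in myeloid nuclei was lost in 10 of 13 alternatives. Of 24 p53 target and DNA damage genes, TP53I3 fell in all 4 types and none rose. This fall is 4.17% of the list, beside 3.08% of all features and 1.41% of those with a symbol. None of the 5 immediate early genes tested in all 4 types passed in any of them, beside 64.9% of all 11324 features that passed in none. With so few genes, no conclusion is drawn from this. Of the 34 genes in that list, 7 to 16 were tested within a single type, and those outside the 5 were not counted. CNOT3, a subunit of the deadenylase complex, rose and EXOSC8, an RNA exosome subunit, fell in all 4 types, of 38 RNase H and exonuclease genes. This is 2.63% each way, beside 1.84% higher and 3.08% lower of all features (1.84% and 1.41% of those with a symbol). The CNOT3 call was lost in 6 of 13 alternatives in myeloid nuclei and 3 in astrocytes.

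Features known only by an identifier were a large part of the shared falls. Of 2250 such features tested in all 4 types, 221 fell in all 4 (9.82%) and 41 rose (1.82%), while of 9074 features with a symbol 128 fell (1.41%) and 167 rose (1.84%). The shares that rose were close, and the shares that fell were not. In the exactly-1 class the order was the other way, with 306 of the features without a symbol (13.6%) and 1592 of those with one (17.5%). No difference between the kinds of feature was tested.

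**Figure D4:**
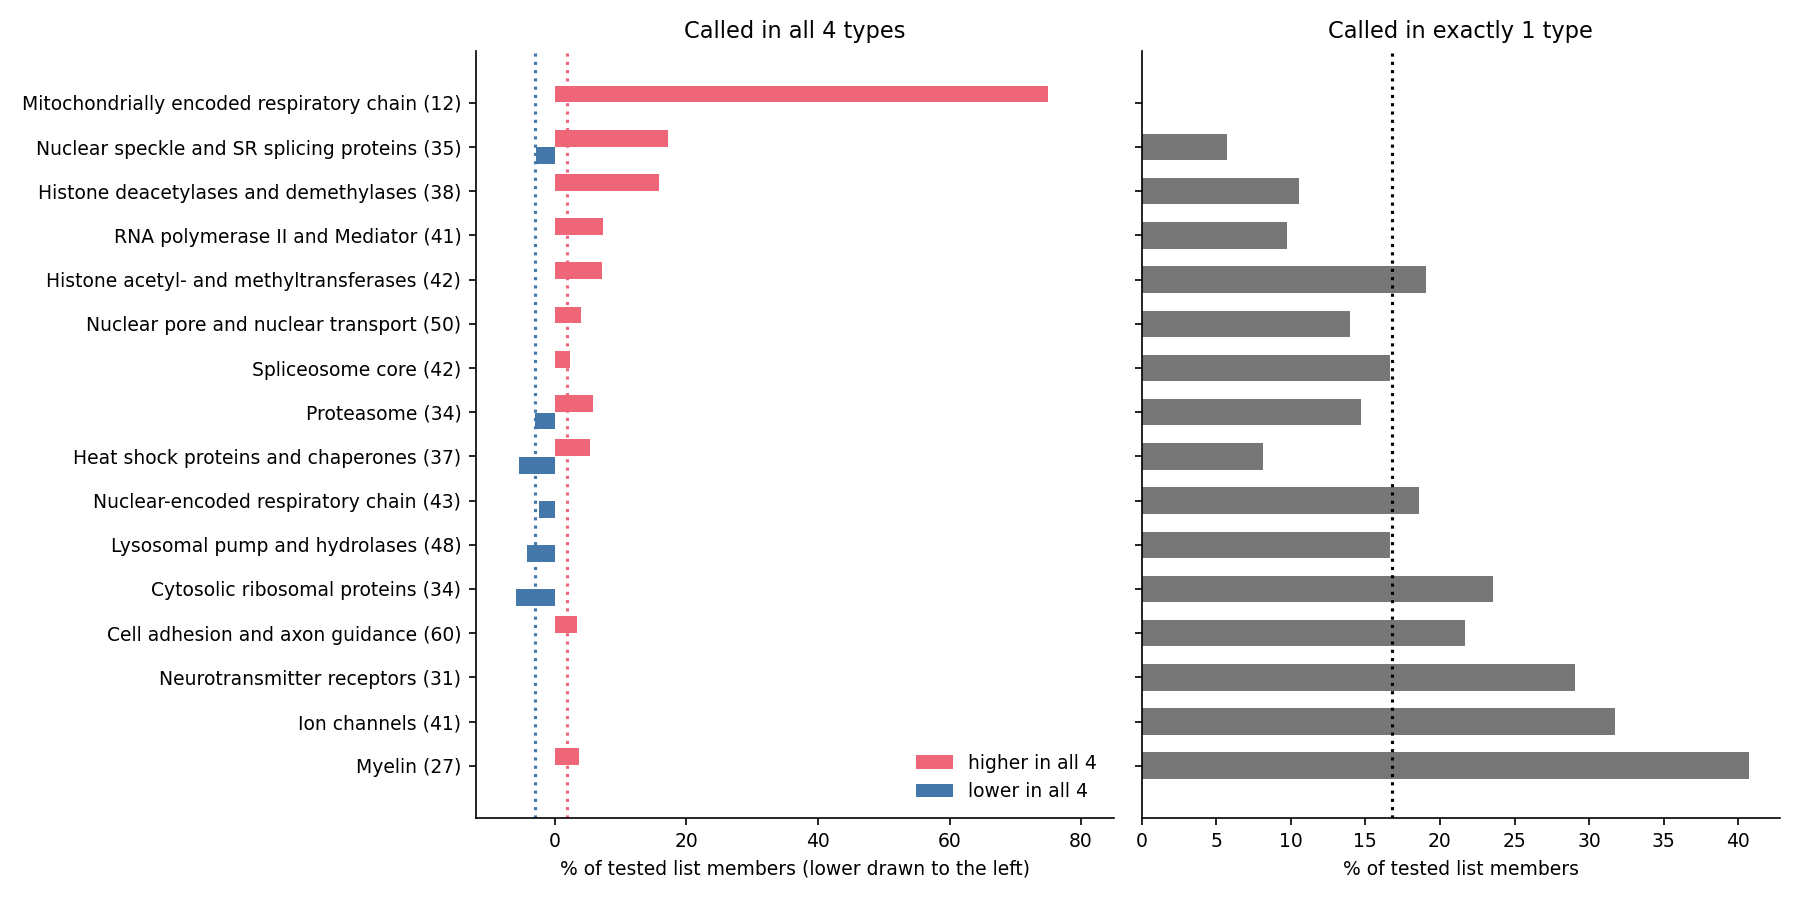
For 16 gene lists, the percentage of tested members (number in brackets) that were higher or lower in all 4 types (left, lower drawn to the left of 0) and called in exactly 1 type (right). Dotted lines mark all 11324 features (1.84% higher, 3.08% lower, 16.8% in exactly 1 type), and the mitochondrially encoded list, with 9 of 12 higher in all 4, has no member in exactly 1 type. The lists hold only features with a symbol, of which 1.84% were higher, 1.41% lower and 17.5% in exactly 1 type.

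Of the 1898 features that passed in exactly 1 type, oligodendrocytes had 596, OPCs 660, myeloid nuclei 334 and astrocytes 308. Passing in 1 type does not make a change particular to it: 1288 of them (67.9%) had the same sign in the other 3 types, and 1144 had an unadjusted p under 0.05 in at least 1 of these. A joint edgeR fit of all 4 types, with animal as a block, tested each type's change against the mean change of the other 3. By that test 147 of the 1898 (7.74%) differed, 77 of 334 in myeloid nuclei (23.1%), 28 of 308 in astrocytes (9.09%), 35 of 596 in oligodendrocytes (5.87%) and 7 of 660 in OPCs (1.06%). Over all 16830 features in the fit, the corresponding shares were 2.2%, 0.832%, 1% and 0.202%. Being called in a type and differing there use the same counts, so the higher shares among called genes describe the selection. The 147 became 60 without saline replicate 1, 65 without OTV replicate 3, 93 without OTV replicate 1 and 323 without saline replicate 3. The members of the class changed more than its size, since 599 of the 1898 were in it without saline replicate 1, 679 without OTV replicate 3, 705 without saline replicate 2 and 580 with the region score.

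The exactly-1 class was counted over the same lists. Ion channels had 13 of 41 genes in it (31.7%) and none in the shared sets, neurotransmitter receptors 9 of 31 (29.0%) and none, and myelin genes 11 of 27 (40.7%) and 1, beside 16.8% of all features. OPC identity genes had 8 of 22 and none in the shared sets, and homeostatic astrocyte genes 8 of 26 and none. By the joint fit, 0 of the 13 ion channels, 0 of the 9 receptors, 0 of the 8 astrocyte genes, 1 of the 11 myelin genes and 1 of the 8 OPC genes changed differently in their type than in the others, so these shares do not show a change particular to a type. The mitochondrially encoded list had none in the exactly-1 class, and the speckle list 2 of 35. Adhesion and axon guidance genes had 13 of 60 in exactly 1 type, of which 3 also differed there from the other types in the joint fit, and 2 that rose in all 4, CNTN2 and PLXNB1, of which CNTN2 lost its myeloid call in 8 of 13 alternatives.

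Myeloid nuclei held most of the genes that differed from the other types. LIFR, the receptor of leukaemia inhibitory factor, stood at 21.1, 37.9 and 51.7 CPM in OTV and 4.10, 8.79 and 11.7 CPM in saline myeloid nuclei, a log2 fold change of 2.17 ± 0.42, with 0.27, -0.22 and 0.49 in oligodendrocytes, OPCs and astrocytes. TP53I13, a p53-inducible gene, stood at 188, 182 and 197 CPM against 48.3, 49.9 and 39.8 CPM. Both genes separated the groups in myeloid nuclei and overlapped in the other 3 types. CNTN1, an axonal adhesion molecule of neurons and glia, stood at 236, 224 and 192 CPM in OTV and 47.7, 40.0 and 98.2 CPM in saline myeloid nuclei. In oligodendrocytes CNTN1 stood far higher in both groups, at 1187, 932 and 766 CPM and 1224, 877 and 657 CPM, and the groups overlapped. The summed oligodendrocyte markers in myeloid nuclei were also higher in the OTV animals, at 1058 to 1643 CPM against 733 to 869 CPM, while astrocyte markers (77.8 to 184 CPM against 35.3 to 161 CPM) and OPC markers (171 to 258 CPM against 61.0 to 335 CPM) overlapped. Endothelial markers in myeloid nuclei, at 186 to 741 CPM against 471 to 709 CPM, overlapped as well. In oligodendrocytes they were far lower, at 6.77 to 10.0 CPM against 9.14 to 13.3 CPM. The part of any of these markers in the myeloid changes was not tested.

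Genes that fell in myeloid nuclei alone included SEMA6A, a transmembrane semaphorin of axon guidance, and MED12L, a Mediator subunit related to MED12. SEMA6A stood at 143, 124 and 91.4 CPM in OTV and 282, 444 and 555 CPM in saline myeloid nuclei (-1.81 ± 0.34), and the difference from the other types was -1.80 (adjusted p = 0.000602, edgeR's joint quasi-likelihood fit). MED12L stood at 148, 119 and 286 CPM against 837, 479 and 537 CPM. The SEMA6A call was lost without OTV replicate 2 or 3 and with the region score. Both genes kept the groups apart, but the intrathecal ASO mean lay near the OTV values for SEMA6A, at 149 CPM, and near the saline values for MED12L, at 623 CPM. Among the activation genes of microglia, CTSB, a lysosomal cathepsin, stood at 414, 405 and 407 CPM against 236, 296 and 179 CPM and rose by 0.78 ± 0.16, more than in the other types by 0.99 (adjusted p = 0.00131 in the joint fit).

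Some microglial identity genes were lower. Of 25 homeostatic microglia genes tested in myeloid nuclei, 4 fell and 1 rose there (beside 7.26% lower and 4.76% higher of all 12667 features), and of 27 genes of activated microglia and lipid handling, 2 fell (HIF1A and MS4A6A) and 1 rose (CTSB). Of the 19 homeostatic genes tested in OPCs, 4 fell there too, GPR34 and PROS1 among them, and 1 rose. Of all 14894 features in OPCs, 11.9% were lower and 10.2% higher. Of the 6 homeostatic genes called in exactly 1 type, 0 differed there from the other types in the joint fit. CX3CR1, the fractalkine receptor, stood at 531, 532 and 297 CPM in OTV and 1030.0, 832 and 828 CPM in saline myeloid nuclei. GPR34, a lysophosphatidylserine receptor of microglia, stood at 278, 177 and 158 CPM against 694, 712 and 519.6 CPM, a log2 fold change of -1.63 ± 0.22. The OTV animals were below the saline animals for both, and MERTK and PROS1, the receptor and ligand of a phagocytic pathway, had log2 fold changes of -0.82 and -0.90. The myeloid call of GPR34 held in every alternative, while those of CX3CR1 and MERTK were lost in most that left out an animal. MS4A6A, a membrane protein of myeloid cells, stood at 2.08, 3.53 and 2.65 CPM against 15.5, 33.2 and 13.7 CPM (-3.03 ± 0.48), with no overlap and no call lost. The myeloid sums of the OTV animals held 0.754 to 3.82 M UMIs, so their MS4A6A values rested on few counts. The summed myeloid markers, which include CX3CR1, were 4300 to 5163 CPM in myeloid nuclei of the OTV animals. In those of the saline animals they were 5498 to 6253 CPM, with no overlap. Summed T cell markers in myeloid nuclei were 22.6 to 32.2 CPM against 46.5 to 87.6 CPM, also with no overlap. The part of either sum in these falls was not tested. CP (ceruloplasmin) and HMOX1 (haem oxygenase), of the iron list, stood at 1.04, 3.53 and 1.33 and 16.4, 18.5 and 14.6 CPM in OTV myeloid nuclei against 49.7, 24.4 and 54.2 and 42.1, 46.5 and 45.3 CPM in saline myeloid nuclei. CP rested on 4, 4 and 1 UMIs in the OTV animals, against 170, 86 and 79 in the saline animals. Neither gene's change in myeloid nuclei differed from the other types by the joint fit.

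In oligodendrocytes the named genes of a single type were DPY19L1, PDK1 and HTRA1, which rose, and PDE1C, BAIAP2 and TMEM53, which fell. TMEM53, a transmembrane protein of the nuclear envelope, stood at 16.3, 12.8 and 11.5 CPM in OTV and 45.6, 52.5 and 37.7 CPM in saline oligodendrocytes (-1.74 ± 0.17), with changes of 0.12, -0.09 and 0.09 in the other types. BAIAP2, a scaffold of actin-rich protrusions, stood at 58.7, 52.5 and 30.6 CPM against 214, 149.9 and 164 CPM. The groups did not overlap for either gene, but the intrathecal ASO mean of BAIAP2, 62.5 CPM, was near the OTV values and that of TMEM53, 53.5 CPM, near the saline values. HTRA1, a secreted serine protease, stood at 215, 190.2 and 143 CPM against 115, 93.8 and 116 CPM, and PDK1, which inhibits pyruvate dehydrogenase, at 109.8, 99.2 and 65.1 CPM against 55.0, 45.5 and 45.6 CPM. Both rises were under 1 log2 unit, with no overlap between the groups. PDE1C stood at 4.13, 7.81 and 3.36 CPM against 24.7, 9.31 and 186 CPM, with saline replicate 3, the animal with the striatal markers, far above the rest. Without that animal the log2 fold change of PDE1C was -1.75 in place of -3.83, and the call was lost without any 1 OTV animal, in the fit of 6 animals and with the region score. DPY19L1 (217, 119 and 132 CPM against 50.6, 70.0 and 29.1 CPM) lost its call in 8 of 13 alternatives, among them each fit without 1 OTV or 1 saline animal.

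**Figure D5:**
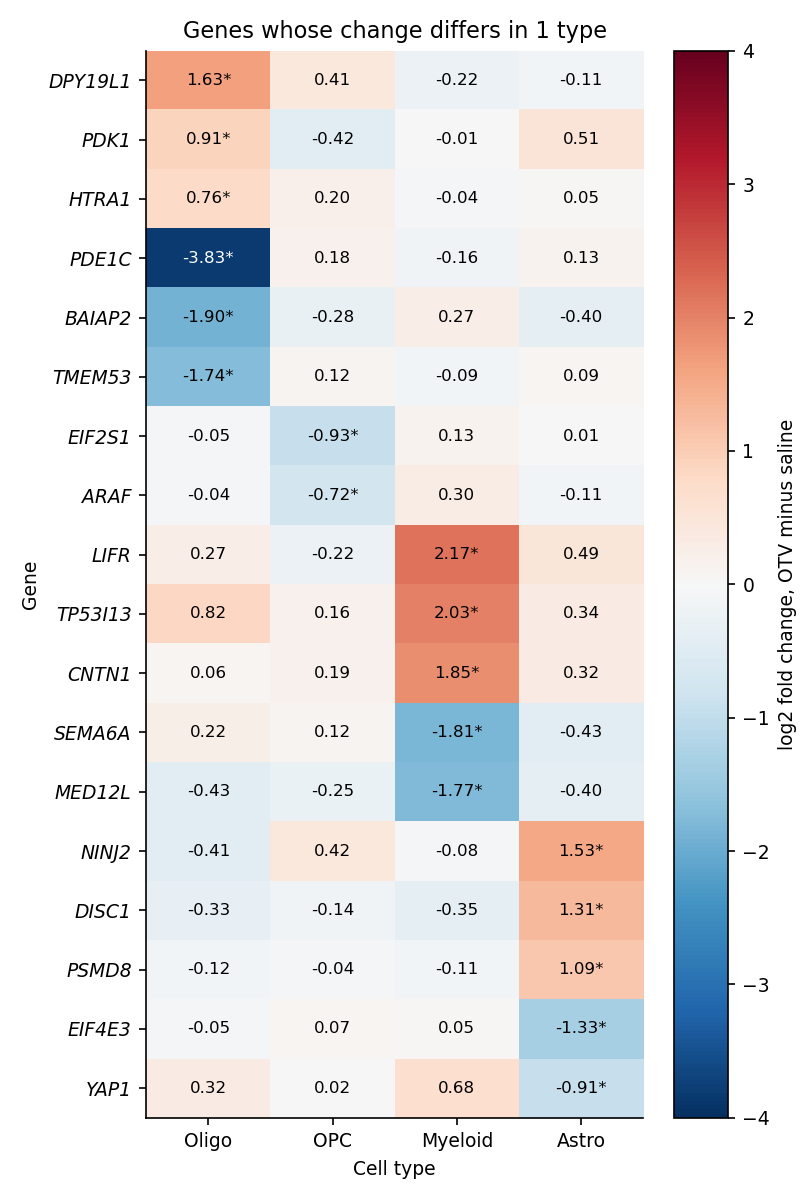
Log2 fold changes (OTV minus saline, printed and coloured from -4 to 4) of the 18 genes named here for a single type, by cell type, where a star marks a call. Each gene is called in its own type only, from -3.83 (PDE1C) to 2.17 (LIFR).

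In astrocytes NINJ2, DISC1 and PSMD8 rose and EIF4E3 and YAP1 fell. YAP1, the transcriptional effector of the Hippo pathway, stood at 113, 122 and 88.5 CPM in OTV and 208, 224 and 172 CPM in saline astrocytes (-0.91 ± 0.17). The OTV animals were all lower, and the YAP1 call held in every alternative run. PSMD8, a proteasome subunit, stood at 75.2, 68.9 and 135 CPM against 44.9, 47.4 and 38.9 CPM, with OTV replicate 3 the highest. NINJ2, an adhesion molecule, DISC1, a scaffold protein, and EIF4E3, a cap-binding protein, each lost the call in 5 or 6 of the 13 alternatives. Of 32 homeostatic astrocyte genes tested in astrocytes, 4 rose and 3 fell there, beside 6.27% higher and 9.12% lower of all 13608 features. ALDH1L1, a folate enzyme used as an astrocyte marker, stood at 303, 246 and 349 CPM against 126, 151 and 134 CPM, and APOE, the main brain apolipoprotein, at 138, 94.8 and 61.2 CPM against 776, 842 and 523 CPM. ALDH1L1 was higher and APOE lower in every OTV animal, with log2 fold changes of 1.13 ± 0.16 and -2.86 ± 0.34. APOE fell in oligodendrocytes and OPCs too, with log2 fold changes of -2.51 and -2.64, and did not pass in myeloid nuclei (-1.23). The oligodendrocyte call of APOE was lost in 7 of 13 alternatives.

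OPCs had many calls but few that were particular to them. EIF2S1, the alpha subunit of the initiation factor that stress kinases phosphorylate, stood at 35.9, 40.4 and 32.3 CPM in OTV and 70.8, 74.7 and 60.8 CPM in saline OPCs. ARAF, a kinase of the MAP kinase pathway, stood at 22.1, 15.8 and 12.6 CPM against 26.6, 31.8 and 27.7 CPM. The OTV animals were lower for both, with log2 fold changes of -0.93 ± 0.15 and -0.72 ± 0.21, and the ARAF call was lost without saline replicate 2, OTV replicate 2 or OTV replicate 3 and with the region score. No gene met the naming rule for a rise in OPCs alone. Of 28 OPC identity genes tested in OPCs, 6 rose (CSPG4, MYT1, NEU4, SMOC1, TNS3 and ZNF488) and 2 fell (PTPRZ1 and LUZP2) there, beside 10.2% higher and 11.9% lower of all 14894 features, and their median log2 difference was 0.16. MYT1, a zinc finger factor of the oligodendrocyte lineage, stood at 156, 173 and 226 CPM in OTV and 68.0, 59.4 and 75.4 CPM in saline OPCs, and NEU4, a sialidase, at 47.1, 47.3 and 59.1 CPM against 10.9, 19.4 and 6.72 CPM. Both were higher in every OTV animal (1.45 ± 0.16 and 1.99 ± 0.32), and neither call in OPCs was lost. These 2 rises were not particular to OPCs, since both genes were also called higher in oligodendrocytes. There the log2 fold changes over the alternatives were 1.86 to 2.56 (MYT1) and 1.13 to 1.60 (NEU4). Each of these calls was lost in 2 of 13 alternatives. CSPG4, the NG2 proteoglycan that marks OPCs, stood at 64.3, 67.7 and 131 CPM against 33.5, 27.3 and 35.3 CPM and rose by 1.44 ± 0.27, while PTPRZ1, a receptor phosphatase of OPCs, stood at 3520.4, 2868 and 2428 CPM against 4653, 3576 and 4605 CPM (-0.54 ± 0.15), a call lost in 5 of 13 alternatives. The summed OPC markers, which include CSPG4 and PTPRZ1, were 9681 to 11773 CPM in OPCs of the OTV animals. In those of the saline animals they were 12027 to 14424 CPM, with no overlap. This sum is thus not separate from the genes above, and its part in these changes was not tested.

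Myelin genes rose mainly outside oligodendrocytes. Of the 27 tested in all 4 types, 3 rose and 4 fell in oligodendrocytes, while OPCs had 15 that rose, astrocytes 13 and myeloid nuclei 10, with none lower in these 3. Among all 11324 features, 10.6% were higher and 9.73% lower in oligodendrocytes, 11.5% and 10.4% in OPCs, 4.95% and 7.12% in myeloid nuclei, and 6.76% and 7.96% in astrocytes. OPALIN, an oligodendrocyte membrane protein, stood at 375, 399.5 and 267 CPM in OTV and 699, 708 and 742 CPM in saline oligodendrocytes, so that the OTV animals were all lower (-1.05 ± 0.20), and its change differed from the other types by -1.38 (adjusted p = 0.000965 in the joint fit). MOBP, a myelin protein, gave 0.49 in oligodendrocytes, which did not pass, and rose by 2.08, 2.30 and 2.30 in OPCs, myeloid nuclei and astrocytes. The summed myelin RNA of OPCs was 4542 to 4980 CPM in the OTV animals and 2609 to 3397 CPM in the saline animals, that of myeloid nuclei 2342 to 3253 against 1254 to 1544 CPM, and that of astrocytes 1282 to 1801 against 796 to 929.6 CPM. OTV and saline animals did not overlap in any of the 3 types, and the part of this summed level in the rises of single myelin genes was not tested. In the intrathecal ASO animals the sum was also above every saline animal in OPCs (3603 to 4627.5 CPM) and astrocytes (1112 to 1528 CPM). In myeloid nuclei it was 1527 to 2537 CPM in the ASO animals, which overlapped the saline range. The summed oligodendrocyte markers, given above for myeloid nuclei and all of them also in the myelin list, were also higher without overlap in OPCs (725 to 1077 CPM against 379.6 to 627 CPM) and astrocytes (470 to 723 CPM against 346 to 405 CPM). In the ASO animals these markers were 804 to 1060 CPM in OPCs, 439 to 691 CPM in astrocytes and 916 to 1471 CPM in myeloid nuclei. These values too lay above every saline animal, so a higher level was not particular to the OTV animals. Each of the 79994 nuclei carries a singlet call in the deposited table, and no doublet caller was run here.

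The level in saline animals went with the direction of the change in a single type. Of the 42 features that fell in myeloid nuclei and differed there, 35 had their highest saline level in myeloid nuclei, as had 41.6% of all features, and of the 35 that rose, 28 had their lowest saline level there, against 22.1%. In oligodendrocytes 10 of 15 that rose had their lowest saline level there (29.6% of all) and 11 of 20 that fell their highest (19.6%). The corresponding counts in astrocytes were 6 of 11 (22.8%) and 11 of 17 (23.7%), and 5 of 6 that fell in OPCs were highest there (15%). The saline level enters both the ranking and the fold change, so these counts are a description.

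Neurons, which did not take part in choosing the shared sets, showed the same directions. Of the 208 features higher in all 4 types, 183 were tested in neurons, 179 had a positive sign and 59 were called higher (32.2%, against 2.52% of all features in neurons). Of the 349 lower, 230 were tested, 228 had a negative sign and 117 were called lower (50.9%, against 4.3%). EIF4G1, a translation initiation scaffold, rose by 1.83 in neurons and by 1.16, 1.63, 1.33 and 1.43 in the 4 other types, while EXOSC8 fell, with -2.20 in neurons and -1.29, -1.54, -1.28 and -1.38 in the others. The neurons came from the same animals and libraries, and ASO replicates 1 and 2 each held under 20 neurons. The 645 calls in neurons became 6 without saline replicate 1, 42 without OTV replicate 3 and 12 with the region score in the model.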

How the data were processed

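Single-nucleus RNA of frozen thalamus was counted in 9 animals, 3 per group by treatment label. The values deposited by the authors are raw UMI counts per nucleus and feature (79994 nuclei, 29128 features), with the authors' cell types. Cell Ranger 6.1.2, Seurat 4 and GRCh38.p13 are named, without a role, per the submitters' processing notes; 14235 features carry macaque Ensembl identifiers only. The sources used here do not give the strand setting of the counting, so overlapping genes are uncertain. The matrix holds no nucleus under 1018 UMIs, and the deposited doublet column calls every nucleus a singlet. No sequence was used here.

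Counts were summed per animal and cell type and fitted over all 9 animals with edgeR 4.0.16 (R 4.3.3): TMM factors, filterByExpr by group, robust quasi-likelihood fits, contrast OTV minus saline, Benjamini-Hochberg adjustment over all features tested, called at an adjusted p under 0.05. CPM are TMM-scaled. Differences between types came from 1 joint fit of the 36 sums of 4 types with animal as a block, each type against the mean of the other 3 (16830 features). Each SE is the absolute log2 fold change divided by the square root of the quasi-likelihood F, so it is not the spread of the compared animals alone. The code was tested on simulated counts. The labels do not say that the animals were otherwise matched, and p-values measure the spread between these animals.

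The comparison, gene lists and rule for named genes were chosen with earlier results of these data known. The rule names MALAT1 and TFRC; the 8 higher and 8 lower genes with the largest smallest change over the 4 types, without overlap and at 20 CPM or more; for each type up to 3 higher and 3 lower genes with an unadjusted p over 0.05 elsewhere and a called difference; and up to 4 members per list with the smallest p. Of the genes it names, 3 are not reported here but were kept in all counts. Alternatives were DESeq2 1.42.0 (Wald test) and its size factors, the 6 compared animals alone, other filters (none, or 10 UMIs in 6 animals), sums thinned to 753516 UMIs, a log2 fold change of 1, a region-score term and leaving out each animal.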

Additional observations from a re-analysis of the deposited data

Results flagged for a closer look

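The genes below had a change in 1 cell type that differed from the mean change of the other 3 types in edgeR's joint quasi-likelihood fit (adjusted p under 0.05). Each value is that difference on the log2 scale, positive where the change in the type was more upward. With 3 animals per group, single animals were not tested as outliers. In oligodendrocytes the difference was positive for RORB (2.44), DPY19L1 (1.69), MT1E (1.32), PDK1 (0.93), HTRA1 (0.74) and MANBA (0.55) and negative for OPALIN (-1.38), BAIAP2 (-1.73), TMEM53 (-1.73) and PDE1C (-3.10). In OPCs the difference was negative for ARAF (-0.81), EIF2S1 (-0.97), CDH19 (-2.19) and RORB (-2.20). In myeloid nuclei the difference was positive for KCNQ1 (2.11), LIFR (1.97), CIITA (1.66), TGFB1 (1.57), CNTN1 (1.57), TP53I13 (1.57), CDH19 (1.57), IL6 (1.21), BAIAP2 (1.14) and CTSB (0.99) and negative for AP2A2 (-0.44), MED12L (-1.56) and SEMA6A (-1.80). In astrocytes the difference was positive for DISC1 (1.60), NINJ2 (1.59), CDH19 (1.48) and PSMD8 (1.14) and negative for CTSB (-0.74), COL9A2 (-0.86), IL6 (-0.91), EIF4E3 (-1.30) and YAP1 (-1.31).

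Some of these genes differed without a call in the type named. TGFB1, a growth factor of microglial maintenance, fell in oligodendrocytes, OPCs and astrocytes (log2 fold changes of -1.44, -1.35 and -2.09) and did not pass in myeloid nuclei (0.00). Its calls in OPCs and astrocytes were lost in 5 and 6 of 13 alternatives. KCNQ1, a potassium channel, fell in oligodendrocytes and OPCs and did not pass in myeloid nuclei.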

How the results depend on the processing

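Among the named genes, no called change reversed its direction in the alternatives run for single genes, but values near 0 that were not called did, such as TFRC in myeloid nuclei (-0.05 to 0.34) and LIFR in astrocytes (-0.28 to 0.87). Adding the region score to the model left 2163 calls in oligodendrocytes, 1009 in myeloid nuclei, 1388 in astrocytes and 12 in neurons, with 64 features higher and 212 lower in all 4 types. Thinning the sums to 1 total gave 653, 1237, 848 and 780 calls in oligodendrocytes, OPCs, myeloid nuclei and astrocytes, 47 higher and 100 lower in all 4, 816 in exactly 1 type and 51 that differed there, so depth limits the number of calls. The 6 compared animals alone gave 973 myeloid calls and 123 shared rises. A log2 fold change of at least 1 gave 1814 calls in OPCs, 928 in myeloid nuclei, 88 shared rises and 944 in exactly 1 type. Without a filter on low counts 3039 of 22985 features tested in all 4 types were called in exactly 1 type, in either direction. Neurons had 1104 calls with DESeq2's Wald test and 361 with the stricter filter. Requiring an unadjusted p over 0.05 in the other 3 types left 92 of the 147.

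Leaving out 1 animal gave 2299 to 3666 calls in oligodendrocytes, 2086 to 3194 in OPCs, 702 to 1973 in myeloid nuclei, 882 to 1959 in astrocytes and 6 to 999 in neurons. It gave 57 to 186 shared rises, 166 to 359 shared falls, 1268 to 1995 features in exactly 1 type and 60 to 323 that differed there. MALAT1 ranged from -0.99 to -0.76 in oligodendrocytes, -0.58 to -0.34 in OPCs, -0.95 to -0.84 in myeloid nuclei and -0.66 to -0.32 in astrocytes. MALAT1 passed in OPCs with DESeq2's size factors (-0.44, adjusted p = 0.0439) and its Wald test (-0.44, adjusted p = 0.0144), and in edgeR's quasi-likelihood test without saline replicate 3 (-0.58, adjusted p = 0.00988) or ASO replicate 3 (-0.44, adjusted p = 0.0492). It passed in myeloid nuclei with the Wald test (-0.88, adjusted p = 0.0224) and in edgeR's quasi-likelihood test with the 6 animals (-0.89, adjusted p = 0.00812) or without ASO replicate 1 (-0.90, adjusted p = 0.00379), and in neurons with the Wald test (-1.23, adjusted p = 0.0196). The cause of these shifts was not tested. No paired analysis was run because the labels do not say that animals of different groups belong together.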

Other observations

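Among genes that were no members of the shared sets, ATF4, the transcription factor of the integrated stress response, rose in oligodendrocytes and OPCs by 1.19 and 0.98 on the log2 scale, with 0.41 and 0.43 in myeloid nuclei and astrocytes, which did not pass. The oligodendrocyte call of ATF4 was lost in 6 of 13 alternatives. HIF1A, the hypoxia factor, fell in oligodendrocytes and myeloid nuclei with log2 fold changes of -0.78 and -0.67. CDH19, a cadherin of the oligodendrocyte lineage, rose in myeloid nuclei and astrocytes by 2.49 and 2.42 and gave 0.68 in oligodendrocytes, which did not pass. Summed T cell markers over all nuclei were 22.8 to 24.0 CPM in the OTV animals and 38.8 to 42.6 CPM in the saline animals, with no overlap and no test.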
